A study of Mus musculus with 9 samples.

Results

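The combined treatment with imeglimin and metformin was examined in pancreatic islets of db/db mice by RNA sequencing, with 3 libraries from treated db/db mice set against 3 from untreated db/db mice. These 6 libraries, of 9 in all, were taken by the genotype and treatment that their labels give, and the other libraries, 3 from untreated db/+ mice, are shown beside them. Mice of the db/db genotype are homozygous for a loss of the leptin receptor, overeat and develop obesity with diabetes, whereas heterozygous db/+ mice stay lean. Both db/db groups share this genotype and, per the labels, differ by the drug combination. The sources used here give no dose, route or length of treatment and no age, sex or number of mice behind a library. Neither drug was given by itself and db/+ mice were not treated, so the effects of the 2 drugs cannot be told apart. The labels do not say that the libraries of a group came from separate animals, and p-values measure the spread between these libraries, which may be technical.

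Islets are clusters of endocrine cells in the pancreas: beta cells secrete insulin, alpha cells glucagon and delta cells somatostatin, among a mesh of capillaries, stellate cells and resident macrophages. In db/db mice beta cells face a lasting insulin demand, lose part of their mature expression programme and start to express genes that are normally silent in them. Metformin lowers glucose output of the liver and acts on mitochondrial respiration and on the energy-sensing kinase AMPK. Imeglimin is a glucose-lowering drug that is described as acting on mitochondria and as raising glucose-stimulated insulin secretion. An islet preparation can also hold exocrine tissue and lymphoid tissue, whose cells contribute RNA to the same library.

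The labelled tissue was checked with its markers: the 8 beta cell markers, insulin among them, summed to between 152800 and 234400 CPM (counts scaled to the library total with TMM factors) in the 6 db/db libraries. Gene totals ran from 11711239 to 15281809 counts per library. A principal component analysis of the 6 libraries placed 62.8% of the variance on its first axis, on which all 3 untreated libraries (scores of -67.5, -10.2 and -25.97) lay apart from the 3 treated ones (30.2, 17.9 and 55.6). Untreated replicate 1 stood farthest out and held the most lymphocyte RNA: its 5 B cell markers summed to 198 CPM, against 17.5 and 13.2 CPM in untreated replicates 2 and 3 and 1.27 to 2.03 CPM in treated libraries. The 7 T cell markers summed to 77.8, 19.9 and 14.7 CPM in untreated and to 1.74 to 3.99 CPM in treated libraries, in which Cd3g and Cd8a held no counts. The 6 markers of exocrine acinar cells, which make digestive enzymes, summed to 1294, 162 and 797 CPM in untreated and 112, 226 and 70.5 CPM in treated libraries. The 5 macrophage markers, most of whose sum is C1qa, overlapped between the groups at 115 to 131 CPM untreated and 116 to 134 CPM treated, although 1 of them, Cd68, was at 8.75 to 11.6 CPM untreated and 5.69 to 6.77 CPM treated. In bulk RNA, fewer cells of a type and less RNA per cell cannot be told apart.

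A small set of genes fell in treated islets. Of 16811 genes tested with edgeR's quasi-likelihood test, 31 passed at an adjusted p under 0.05 (0.184% of all genes tested), of which 30 were lower in treated islets (0.178%) and 1, Rps6ka2, was higher (0.00595%). In all 30 genes that fell, each treated library lay below each untreated one, a separation that 8.61% of all genes tested showed in that direction. The 30 were picked by the same values, so their separation was largely set by the call and is no separate evidence. Of the 30, 28 fell at least 2-fold, and 25 had their highest value in untreated replicate 1. At an unadjusted p under 0.05 there were 2933 genes, 1275 lower and 1658 higher, and the median log2 fold change over all genes tested was 0.071. The call count differed between settings: with the same test, 0 genes passed in the 6 db/db libraries by themselves (2803 at an unadjusted p under 0.05, smallest adjusted p 0.0846), while DESeq2 called 639 (3.80%), 504 lower and 135 higher, among them all 31. Without untreated replicate 1 the test called 154 genes (0.894% of those tested), 153 lower (0.888%) and 1 higher (0.00581%), including 30 of the 31. Against db/+ islets, edgeR called 63.2% of all genes in untreated and 65.1% in treated db/db islets; these comparisons share libraries with that of treatment, and db/+ levels are given only side by side.

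**Figure D1:**
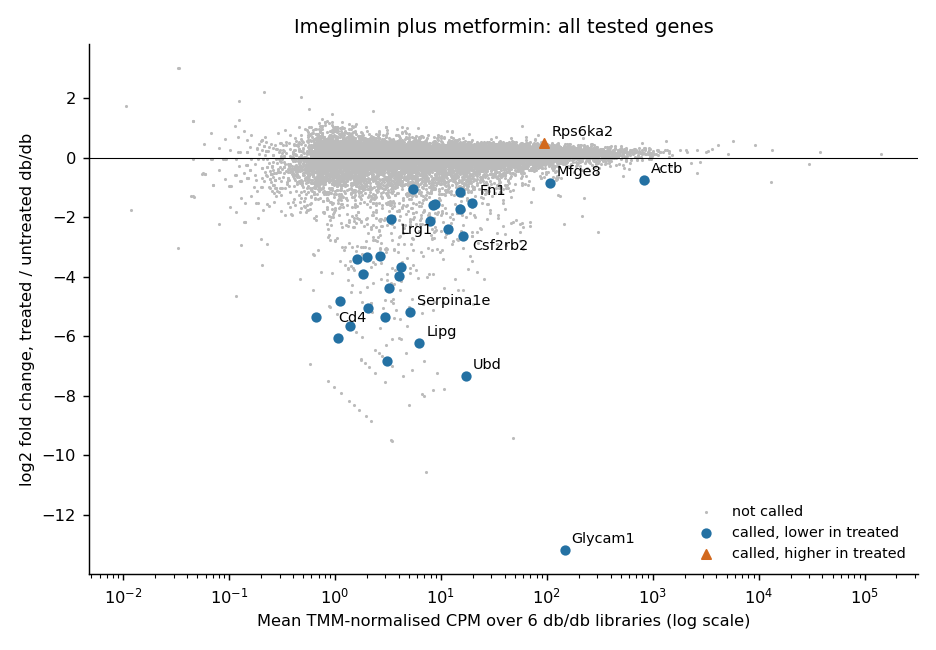
Log2 fold change of treated over untreated db/db islets against the mean level over the 6 db/db libraries (TMM-normalised CPM, log scale), 1 point per gene for 16811 genes. Blue points mark the 30 genes that fell and the orange triangle Rps6ka2, the 1 that rose; Glycam1 lies lowest, and Actb, Mfge8 and Rps6ka2 are the called genes with high levels and small differences.

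Genes of high endothelial venules, the vessels through which lymphocytes enter lymphoid tissue, were among those that fell. Glycam1, a mucin-like ligand of the lymphocyte homing receptor L-selectin, stood at 349.8, 382 and 150.1 CPM in untreated islets and was represented by a single read in the 3 treated libraries. The ratio of untreated to treated counts was 13360, with an exact 95% counting interval from 2398 to 527800 (edgeR adjusted p = 0.0025), and the gene passed under 17 of 20 alternative settings. In db/+ islets it stood at 0, 0.102 and 0.298 CPM, so it was near 0 in both the treated db/db and the db/+ groups. Chst4, a sulfotransferase that modifies L-selectin ligands on the same vessels, was at 3.00, 2.52 and 0.854 CPM untreated and also left 1 read in treated islets (ratio 95.9, interval 16.8 to 3828, adjusted p = 0.025). Another venule marker, Madcam1, which encodes a mucosal addressin, was at 17.6, 13.0 and 6.33 CPM untreated and 1.34, 2.09 and 0.258 CPM treated and missed the threshold (adjusted p = 0.099). Ccl21a, a chemokine of lymphoid tissue, was at 149, 85.3 and 56.0 CPM untreated and 0, 0.392 and 0 CPM treated, again without passing (adjusted p = 0.058; 0.0064 without untreated replicate 1). Of 20 tested genes of venules and lymphoid tissue, Glycam1 and Chst4 fell and 0 rose, 15 had treated levels below all untreated ones (8.61% of all genes tested did), and the median log2 fold change was -3.10, or -1.92 without untreated replicate 1. DESeq2 called 13 of them lower, where it called 3.00% of all genes lower. Members near 0 in treated and db/+ islets, such as Glycam1, could pass the low-count filter only through untreated libraries, which favours such separation and such calls.

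Of the 3 venule markers, Madcam1 and Chst4 were highest in untreated replicate 1, the library with most lymphocyte RNA, and Glycam1 in untreated replicate 2. Their sum, most of it Glycam1, was 370 CPM in untreated replicate 1, 397 CPM in replicate 2 and 157 CPM in replicate 3, against 0.258 to 2.16 CPM in treated libraries. The 3 lymphatic endothelial markers Lyve1, Prox1 and Flt4 overlapped, with sums of 59.6 to 66.0 CPM untreated and 57.5 to 66.8 CPM treated. The whole lymphatic endothelial list did not: it summed to 235, 160 and 128 CPM untreated and 61.9, 74.6 and 66.2 CPM treated. Of its 6 tested genes 2 were separate in the lower direction (8.61% of all genes), and DESeq2 called 2 lower (3.00% of all genes). The median log2 fold change of the 6 was -0.030, with 2 positive and 4 negative, so the lower sum was not shared by the list as a whole. Markers of blood endothelium summed to 208 to 269 CPM untreated and 186 to 207 CPM treated.

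T lymphocyte genes made up the next group, and several of those that fell mark regulatory or activated T cells. Foxp3, the transcription factor that defines regulatory T cells, was at 5.48, 2.46 and 2.49 CPM in untreated islets. In treated islets it was at 0.212, 0.262 and 0.194 CPM, a log2 fold change of -3.91 ± 0.51 (adjusted p = 0.0094). The ± gives the standard error (SE) for 3 libraries against 3, with the spread estimated over all 9 libraries. Cd4, the coreceptor of helper and regulatory T cells, went from 9.72, 5.29 and 2.42 CPM to 0.0706, 0.196 and 0.129 CPM (-5.35 ± 0.68, adjusted p = 0.0094). Il2ra, the interleukin 2 receptor alpha chain, fell by 3.99 ± 0.52 on the log2 scale, from 11.7, 8.38 and 2.63 CPM to between 0.423 and 0.516 CPM. Pdcd1, which encodes the inhibitory receptor PD-1, held 2 reads in treated islets against 7.46, 7.998 and 2.99 CPM untreated (ratio 139.7, interval 38.3 to 1160). Zap70, the kinase next to the T cell receptor, fell by 3.41 ± 0.59 (adjusted p = 0.046). In each of these genes the groups were separate, and the 3 treated values lay at or under 0.564 CPM. In db/+ islets Il2ra was at 0.594 to 0.993 CPM and Zap70 at 0.693 to 0.714 CPM, above their treated levels. Which cells the Il2ra and Zap70 reads came from was not tested.

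The other T cell markers lay on the same side, mostly without passing the test. Of 21 tested genes of the T cell list 3 fell (Cd4, Foxp3 and Zap70) and 0 rose. In 20 of them treated levels lay below all untreated ones (8.61% of all genes tested did). Members near 0 in treated and db/+ islets could pass the low-count filter only through untreated libraries. Their separation was thus largely set by that filter and is no separate evidence. The median log2 fold change was -4.84, or -4.83 with the 4 genes that had no treated reads set at their bound. DESeq2 called 18 of the 21 lower (3.00% of all genes), and 15 passed in edgeR without untreated replicate 1, a setting in which 0.888% of all genes were called lower. The same filter favours such calls, so these counts beside all genes are no separate evidence either. Cd3e, a chain of the receptor complex itself, was at 12.2, 2.33 and 1.99 CPM untreated and held 2 reads in treated islets (ratio 119.6, interval 32.7 to 993.5, adjusted p = 0.058). Cd8a, the coreceptor of cytotoxic T cells, was at 8.04, 1.13 and 0.925 CPM untreated and had no treated read, at least 48.5-fold lower against a floor of 3 counts over the group, or at least 15.5-fold without untreated replicate 1 (adjusted p = 0.28).

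A further 6 called genes that are known from lymphocytes and leukocytes lay outside the lists and were named after their values were seen. Spn, the leukocyte surface mucin CD43, fell by 5.04 ± 0.76 on the log2 scale. Tnfrsf4, known as the costimulatory receptor OX40 of activated T cells, fell by 2.07 ± 0.34, from 8.62, 4.03 and 3.77 CPM. Its treated levels of 1.16 to 1.503 CPM also lay below the 6.73 to 10.2 CPM of db/+ islets. In those db/+ islets the T cell marker Cd3e was at 0, 0 and 0.0993 CPM, and which cells the Tnfrsf4 reads came from was not tested. Klri1, a lectin-like receptor of natural killer cells, left 1 treated read (ratio 57.7, interval 9.95 to 2321), and Tnfsf11, the ligand RANKL, left 2 (61.4, 16.6 to 512.5). Adam8, a membrane metalloprotease of leukocytes, fell by 1.55 ± 0.25, and Nrros, a leucine-rich repeat protein of myeloid cells, by 1.59 ± 0.27. Ms4a6b, a membrane protein named by the rule for genes, went from 14.7, 5.10 and 3.84 CPM to between 0.387 and 0.784 CPM (-3.69 ± 0.56, adjusted p = 0.038).

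B cell genes had 0 calls, and their untreated levels spread widely. Ighd, the heavy chain of naive B cell receptors, went from 36.7, 3.65 and 2.85 CPM to no treated read, at least 206-fold lower, or at least 49.1-fold without untreated replicate 1 (adjusted p = 0.18 with it and 0.0015 without). Of 23 tested B cell genes 0 were called by edgeR, and 20 had treated levels below all untreated ones (8.61% of all genes tested did). As in the T cell list, members near 0 elsewhere could pass the low-count filter only through untreated libraries, which largely sets this count. The median log2 fold change was -5.40 (the same with the 3 genes that had no treated reads set at their bound), or -2.89 without untreated replicate 1. For the T cell list it was -4.84 and -3.78, so the order of the lists turned with that library. Without untreated replicate 1, 13 fell (0.888% of all genes did). With all libraries DESeq2 called 10 lower (3.00% of all genes) while giving no adjusted p for 9 of the 23. The filter favours these calls too, so their counts are no separate evidence.

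**Figure D2:**
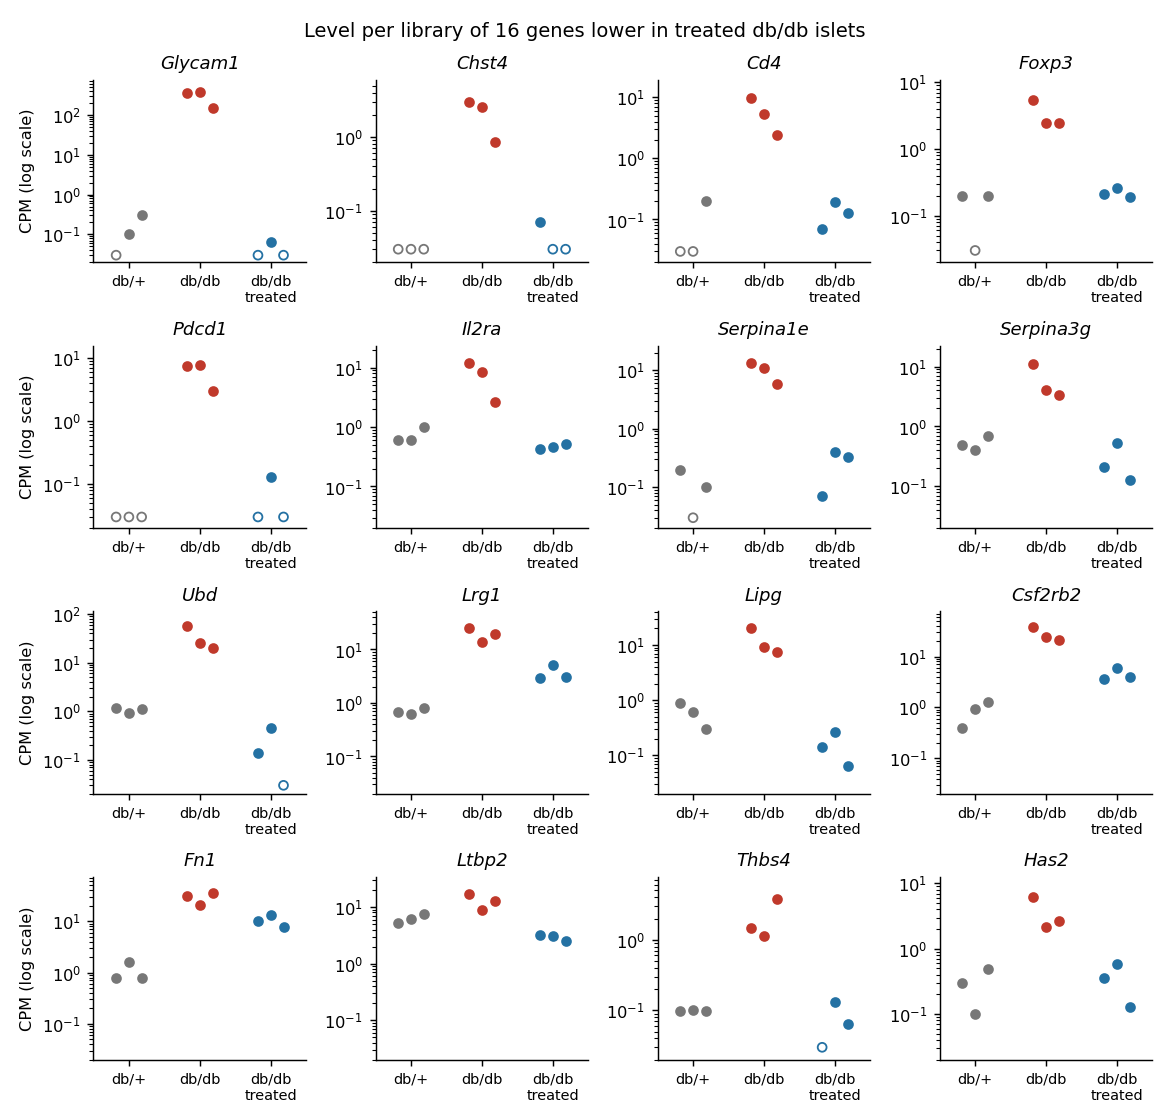
Level in each library (TMM-normalised CPM, log scale, own scale per panel) of 16 genes that fell, for db/+ (grey), untreated db/db (red) and treated db/db islets (blue), with replicates 1 to 3 from left to right and open circles for libraries without a read. In every panel the 3 blue points lie below the 3 red ones, and untreated replicate 3 is often the lowest red point.

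Antigen presentation genes, which are expressed by B cells, dendritic cells and macrophages and in part by all cells, had lower mean levels in treated islets without a call. All 18 tested members had a negative log2 fold change (61.7% of all genes tested had a positive one), with a median of -1.06, and 11 were separate between the groups (8.61% of all genes in that direction). DESeq2 called 11 of them lower, against 3.00% of all genes. Cd74, the invariant chain of MHC class II, was at 686, 152 and 197 CPM untreated and 91.9, 112 and 59.6 CPM treated, a log2 fold change of -1.98 ± 0.61 (adjusted p = 0.19). H2-K1, an MHC class I heavy chain, was at 244, 181 and 213 CPM untreated and 162, 165 and 126 CPM treated (-0.49 ± 0.14, adjusted p = 0.12). Class II genes moved with the lymphocyte markers of untreated replicate 1, whose part in the result was not tested. Without that library the list's median was -0.56 and 2 members fell (0.888% of all genes did).

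Serpina1e, Serpina3g and Ubd were also called and belonged to no list. Serpina1e, a serpin of the alpha-1-antitrypsin family, was at 13.2, 11.0 and 5.83 CPM untreated and 0.0706, 0.392 and 0.323 CPM treated, a fall of 5.19 ± 0.49 on the log2 scale (edgeR adjusted p = 0.0023, passing in 18 of 20 alternatives). Its level in db/+ islets was 0.198, 0 and 0.0993 CPM. Serpina3g, an intracellular serpin, went from 11.3, 4.03 and 3.42 CPM to 0.212, 0.523 and 0.129 CPM (-4.38 ± 0.59, adjusted p = 0.010). Both belong to families of near-identical mouse genes among which reads can be split, so which member they come from is uncertain. Ubd, a ubiquitin-like modifier induced by inflammatory cytokines, fell by 7.35 ± 0.70, from 56.7, 25.4 and 20.3 CPM to 0.141, 0.458 and 0 CPM, below the 0.918 to 1.19 CPM of db/+ islets.

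Lipg and Lrg1 passed in 18 and 19 of 20 alternatives. Lipg, the endothelial lipase that hydrolyses lipoprotein phospholipids, was at 20.4, 9.13 and 7.54 CPM untreated and 0.141, 0.262 and 0.0645 CPM treated (-6.22 ± 0.57, adjusted p = 0.0023). Lrg1, a secreted leucine-rich glycoprotein of the acute phase, was at 25.7, 13.7 and 19.4 CPM untreated and 2.96, 5.23 and 3.03 CPM treated (-2.38 ± 0.26, adjusted p = 0.0032). Treated levels of Lrg1 stayed above the 0.612 to 0.795 CPM of db/+ islets, so the groups formed 3 separate levels. The same 3 levels were seen for Csf2rb2, a beta chain of the mouse interleukin 3 receptor with a near-identical paralog, at 21.3 to 38.4 CPM untreated, 3.60 to 6.08 CPM treated and 0.396 to 1.29 CPM in db/+ islets (treated against untreated -2.63 ± 0.30, adjusted p = 0.0094). Pglyrp1, a secreted bacterial peptidoglycan receptor named after its values were seen, fell by 3.29 ± 0.45 to 0.194 to 0.784 CPM.

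Bases upstream of the start of 4 called genes are given because 3 of them hold, within 250 bases before to 50 after the start, sequence matching the motif of a factor that responds to cytokines, and the fourth is the 1 gene that rose. The sequences are RefSeq's, build GRCm38.p6, 5′ to 3′ on the gene's strand, and end at the base before the start. Capitals mark matches, on either strand, to TTCNNNGAA, the gamma-activated element bound by STAT factors, or to a kB element bound by NF-kB, searched as GGG, any 2 bases and TTTCC.
Glycam1, chr15:103565082-103565331, minus strand: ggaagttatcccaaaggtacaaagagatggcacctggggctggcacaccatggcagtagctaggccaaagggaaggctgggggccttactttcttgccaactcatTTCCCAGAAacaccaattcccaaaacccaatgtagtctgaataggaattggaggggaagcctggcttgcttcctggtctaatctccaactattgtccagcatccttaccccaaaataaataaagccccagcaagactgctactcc
Serpina3g, chr12:104235897-104236146, plus strand: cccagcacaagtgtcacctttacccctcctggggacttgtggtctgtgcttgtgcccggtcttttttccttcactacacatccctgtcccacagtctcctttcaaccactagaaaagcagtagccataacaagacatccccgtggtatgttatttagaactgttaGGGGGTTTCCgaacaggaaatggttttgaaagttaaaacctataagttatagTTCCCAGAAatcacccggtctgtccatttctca
Ubd, chr17:37193642-37193891, plus strand: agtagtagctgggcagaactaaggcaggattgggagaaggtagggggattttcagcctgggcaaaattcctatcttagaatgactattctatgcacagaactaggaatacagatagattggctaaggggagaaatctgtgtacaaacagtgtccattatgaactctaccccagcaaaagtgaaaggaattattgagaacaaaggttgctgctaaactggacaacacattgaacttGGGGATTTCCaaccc
Rps6ka2, chr17:7169865-7170114, plus strand: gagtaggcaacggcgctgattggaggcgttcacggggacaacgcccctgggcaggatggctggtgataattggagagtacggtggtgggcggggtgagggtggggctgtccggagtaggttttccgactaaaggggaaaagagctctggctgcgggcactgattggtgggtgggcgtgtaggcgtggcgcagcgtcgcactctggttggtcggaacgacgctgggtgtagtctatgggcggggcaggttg
In Glycam1 the matched element is of the STAT kind, in Ubd of the NF-kB kind, and Serpina3g holds both without overlap. Of the called genes, 25 had a window in the RefSeq table, and a gene counted as holding a motif if any of its windows did. TTCNNNGAA occurred in 6 of the 25 (Csf2rb2, Ctla2a, Foxp3, Glycam1, Nrros and Serpina3g) and in 9.55% of 27025 genes. The kB element occurred in 3 (Pglyrp1, Serpina3g and Ubd) and in 1.89%. The interferon-stimulated element, searched as GAAA, any 2 bases and GAAA, occurred in 0 of the 25 and in 3.99% of the 27025 genes. The TATA box TATAAA occurred in 4 and in 15.7%, and the E-box CACGTG in 2 and in 8.09%. Both strands were searched and each motif was counted on its own; a match is a description of the sequence and not a site in use.

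Matrix and cytoskeletal genes were also among the calls. Fn1, which encodes the matrix glycoprotein fibronectin, was at 31.1, 21.1 and 35.9 CPM untreated and 10.02, 13.0 and 7.81 CPM treated (-1.51 ± 0.24, adjusted p = 0.045), with db/+ islets at 0.792 to 1.63 CPM, but it passed in 8 of 20 alternatives. Ltbp2, which binds latent TGF-beta in the matrix, fell from 16.7, 8.94 and 12.7 CPM to 3.25, 3.07 and 2.52 CPM (-2.11 ± 0.24, adjusted p = 0.0032), below the 5.25 to 7.65 CPM of db/+ islets. Pdlim1, a PDZ and LIM domain adaptor on actin filaments, fell from 28.2, 20.7 and 21.7 CPM to 7.76, 8.37 and 5.03 CPM (-1.74 ± 0.19, adjusted p = 0.0025). Both Ltbp2 and Pdlim1 passed in 19 of 20 alternatives. Has2, the synthase of hyaluronan in the matrix, fell by 3.33 ± 0.56, and Thbs4, a matrix thrombospondin, left 3 treated reads (ratio 31.6, interval 10.5 to 156); both were named after their values were seen.

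Most other matrix genes were not called, although nearly all had negative log2 fold changes. Of 29 tested genes of stellate cells and matrix, Fn1 fell and 0 rose, and 6 were separate between the groups in the lower direction (8.61% of all genes). Negative values were held by 28 (61.7% of all genes had a positive one), with a median of -0.56. DESeq2 called 3 lower (3.00% of all genes). Col1a1, the main chain of type I collagen, was at 36.5, 17.95 and 77.2 CPM untreated and 22.1, 44.7 and 12.2 CPM treated, with overlapping groups (-0.73 ± 0.76, adjusted p = 0.65). Timp1, an inhibitor of matrix metalloproteases, was at 23.6, 11.0 and 17.8 CPM untreated and 4.66, 7.65 and 2.06 CPM treated; it missed the threshold in edgeR (adjusted p = 0.12) and passed in DESeq2 (0.00050).

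Other called genes differed by smaller amounts, Actb and Mfge8 by under 2-fold. Actb, the cytoplasmic actin, was at 1208, 887 and 1006 CPM untreated and 625, 648 and 548 CPM treated (-0.77 ± 0.13, adjusted p = 0.045), while db/+ islets were highest at 1504 to 1679 CPM; its many processed copies make its count uncertain. Mfge8, a bridge between apoptotic cells and phagocytes, was at 162, 125 and 124 CPM untreated, 77.5, 83.0 and 67.3 CPM treated and 54.3 to 57.9 CPM in db/+ islets (-0.85 ± 0.12, adjusted p = 0.0094). Ctla2a, an inhibitor of cathepsin-like cysteine proteases, fell by 1.17 ± 0.17 to 7.94 to 10.3 CPM, and Id1, a repressor of helix-loop-helix factors that responds to bone morphogenetic proteins, by 1.05 ± 0.18 to 2.96 to 4.19 CPM. In Ctla2a and Id1, both named after their values were seen, treated levels were below the db/+ ranges of 22.1 to 35.5 CPM and 12.2 to 14.5 CPM.

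Rps6ka2 was the 1 gene that rose. It encodes the ribosomal S6 kinase RSK3, which acts downstream of the ERK kinases. It was at 76.0, 84.2 and 77.1 CPM in untreated and 108, 106 and 117 CPM in treated islets, with db/+ islets at 49.1 to 52.4 CPM, so the 3 groups did not overlap. The log2 fold change was 0.48 ± 0.084 (edgeR adjusted p = 0.046). It passed in 4 of 20 alternatives, with adjusted p from 5.66e-05 in DESeq2 to 0.25, while the log2 fold change stayed between 0.39 and 0.53.

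No other tested gene of the ribosomal S6 kinase family was called. Rps6ka3, the kinase RSK2, was at 71.0, 72.9 and 76.8 CPM untreated and 86.6, 82.9 and 80.8 CPM treated (0.18 ± 0.086, adjusted p = 0.30). Rps6ka1, the kinase RSK1, was at 11.6, 6.30 and 9.61 CPM untreated and 5.997, 6.34 and 4.90 CPM treated (-0.67 ± 0.23, adjusted p = 0.18). Rps6kb1, the S6 kinase downstream of mTORC1, differed by 0.053 ± 0.11 (adjusted p = 0.83). Among 29 tested genes of insulin and IGF1 receptor signalling, Rps6ka2 rose and 0 fell, 10 had treated levels above all untreated ones (19.0% of all genes tested did), and the median was 0.13.

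**Figure D3:**
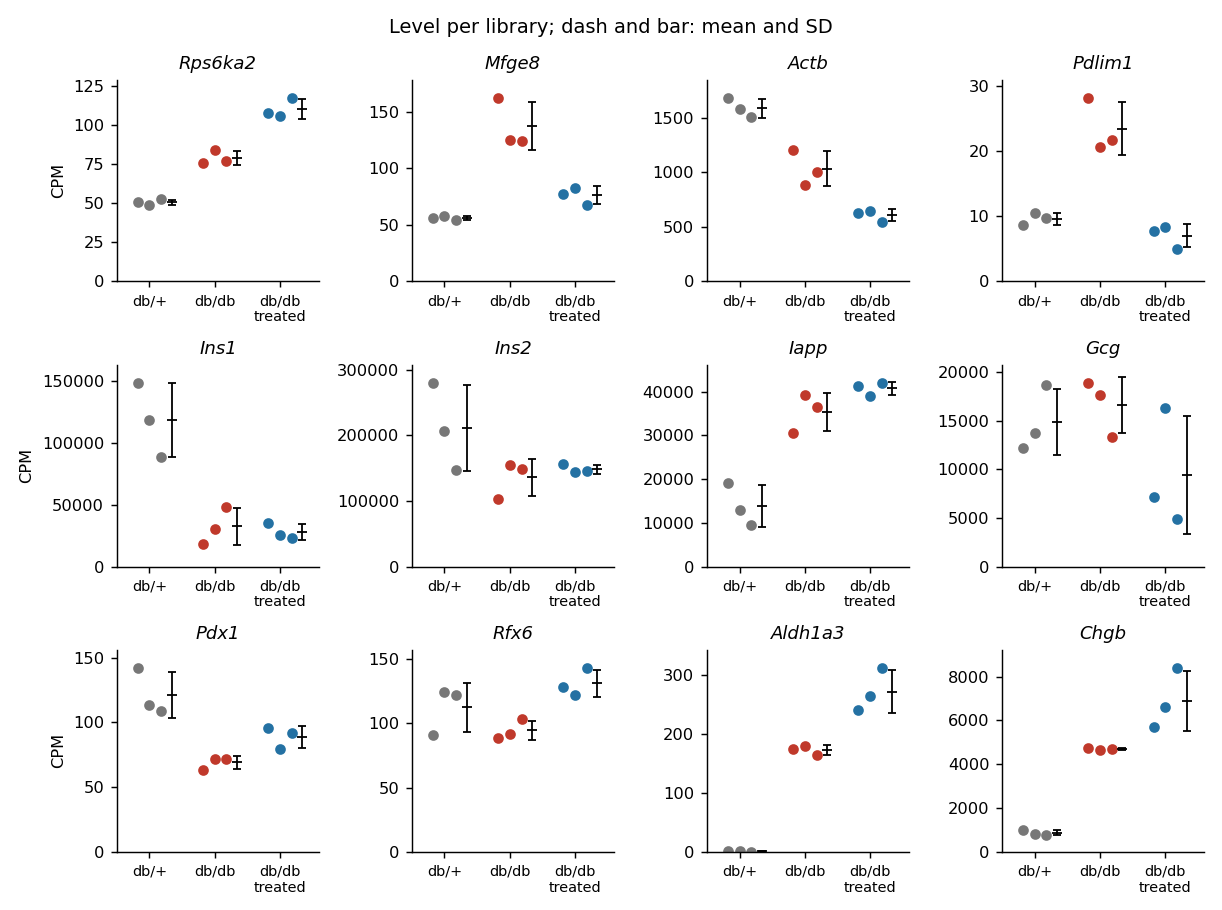
Level in each library (TMM-normalised CPM, linear axes from 0, own scale per panel) of 4 called genes in the top row and of 8 endocrine genes that were not called by edgeR, for db/+ (grey), untreated (red) and treated db/db islets (blue); the dash and bar give the mean and SD of 3 libraries. Rps6ka2 is highest in treated islets, and the hormone genes Ins1, Ins2 and Gcg overlap between the 2 db/db groups.

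Beta cell hormone and identity genes did not pass the test. Ins1 was at 18540, 30530 and 48360 CPM untreated and 35400, 25320 and 23170 CPM treated (-0.22 ± 0.33, adjusted p = 0.75), and Ins2 at 103400 to 155100 CPM and 144400 to 156200 CPM (0.13 ± 0.28, adjusted p = 0.83). Iapp, which encodes islet amyloid polypeptide, differed by 0.20 ± 0.24 (adjusted p = 0.67). The insulin genes overlapped between untreated and treated islets, and their standard errors exceed the differences themselves.

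Some transcription factors of beta cells were separate between the groups, by small amounts. Pdx1, a factor that drives insulin transcription, was at 63.4, 71.9 and 71.9 CPM untreated and 95.7, 79.1 and 91.4 CPM treated (0.36 ± 0.12, adjusted p = 0.16). Rfx6, a factor of endocrine development, was at 88.7, 92.0 and 103 CPM untreated and 128, 122 and 143 CPM treated (0.47 ± 0.12, adjusted p = 0.10); of the list it was the 1 gene that DESeq2 called (0.039). Mafa, a factor of mature beta cells, was at 11.99, 23.1 and 27.8 CPM untreated and 37.5, 15.2 and 17.3 CPM treated, against 509 to 555 CPM in db/+ islets (0.15 ± 0.41, adjusted p = 0.88). Nkx6-1 (0.45 ± 0.21, adjusted p = 0.30), Ucn3 (0.24 ± 0.16, 0.45), Slc2a2 (0.25 ± 0.35, 0.73) and Glp1r (0.23 ± 0.17, 0.50) likewise did not pass.

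Taken as a list, 28 of 31 tested beta cell genes had a positive log2 fold change, against 61.7% of all genes tested, with 0 called and a median of 0.25. Under upper-quartile scaling 25 of 31 were positive against 50.9% of all genes, with a median of 0.19, and without untreated replicate 1 the median was 0.11. Of the 31, 9 had treated levels above all untreated ones (19.0% of all genes did). Levels are shares of each library. Untreated replicate 1, with the most lymphocyte and acinar marker RNA, had the lowest summed beta cell markers of the 6 libraries, at 152800 CPM. Untreated replicate 3, with acinar markers at 797 CPM, had the highest, at 234400 CPM. The part of other cells' RNA in these values was not tested.

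Genes of the secretory granule had higher mean levels in treated islets, without a call. Of 27 tested, 25 had positive log2 fold changes (61.7% of all genes did) and 17 were separate in the higher direction (19.0% of all genes), with a median of 0.27 (0.18 without untreated replicate 1) and 0 called. Chgb, a granin that packs hormone into granules, was at 4731, 4647 and 4693 CPM untreated and 5678, 6609 and 8378 CPM treated (0.55 ± 0.17, adjusted p = 0.13; DESeq2 0.011), and 775 to 1000.0 CPM in db/+ islets. Scg5, a chaperone of the prohormone convertase PC2, was at 1182, 1239 and 863 CPM untreated and 1617, 1459 and 1719 CPM treated (0.55 ± 0.17, adjusted p = 0.14; DESeq2 0.038). Of 28 ion channel genes 0 were called by edgeR and 2 were called higher by DESeq2, which called 0.803% of all genes higher. They were Kcnmb2, a subunit of calcium-activated potassium channels (0.46 ± 0.11, edgeR adjusted p = 0.093, DESeq2 0.019), and Scn9a, a sodium channel of beta cells (0.41 ± 0.10, 0.097 and 0.032).

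Markers of dedifferentiated beta cells did not pass in edgeR. Aldh1a3, a retinaldehyde dehydrogenase that is a marker of failing beta cells, was at 175, 179 and 164 CPM untreated and 239.9, 263 and 311 CPM treated, with no overlap, and at 0.298 to 1.68 CPM in db/+ islets. Its log2 fold change was 0.65 ± 0.16 (edgeR adjusted p = 0.10; DESeq2 8.7e-05). Gast, which encodes gastrin, was at 52.0, 48.2 and 44.5 CPM untreated and 43.6, 90.6 and 102 CPM treated (0.71 ± 0.27, adjusted p = 0.25), with treated replicate 1 at the untreated level. Cck, encoding cholecystokinin, differed by -0.13 ± 0.11 (adjusted p = 0.55). The 16 tested genes of the list had a median of 0.072, close to that of all genes.

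Hormone genes of other islet cells varied between treated libraries. Gcg, which encodes glucagon, was at 18830, 17580 and 13350 CPM untreated and 7126, 16270 and 4858 CPM treated (-0.82 ± 0.40, adjusted p = 0.32). Sst, encoding somatostatin, was at 2927, 3716 and 2635 CPM untreated and 1803, 2903 and 1754 CPM treated (-0.52 ± 0.22, adjusted p = 0.26). In both, treated replicate 2 lay within the untreated range and the other 2 treated libraries below it. Ppy, encoding pancreatic polypeptide, was at 1995 to 2862 CPM and 2010 to 3309 CPM (0.24 ± 0.20, adjusted p = 0.55). Of 15 tested genes of these cell types 13 had negative log2 fold changes (61.7% of all genes had a positive one), with 0 called and a median of -0.54.

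Disallowed genes, which mature beta cells keep silent, had 0 calls by edgeR. Of 21 tested, 20 had negative log2 fold changes (61.7% of all genes had a positive one), with a median of -0.83 (-0.68 without untreated replicate 1). DESeq2 called 4 lower (3.00% of all genes): Slc16a1, a lactate and pyruvate transporter, Igfbp4, a binding protein of insulin-like growth factors, Arap2 and Zfp36l1. Slc16a1 was at 9.06, 4.35 and 6.55 CPM untreated and 2.61, 3.33 and 0.710 CPM treated (-1.58 ± 0.49, edgeR adjusted p = 0.16). Ldha, lactate dehydrogenase A, was at 63.7, 21.3 and 48.8 CPM untreated and 35.3, 20.7 and 9.36 CPM treated, with overlap (-1.03 ± 0.55, adjusted p = 0.38). Summed over the list, levels were 400, 209 and 335 CPM untreated and 194, 223 and 130.5 CPM treated, with overlap. Cells other than beta cells express these genes too, and their part was not tested.

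Respiratory chain, NAD and AMPK genes, which encode parts of the machinery on which both drugs are described as acting, had 0 calls by edgeR and list medians near that of all genes. The 36 tested subunits of complex I had a median log2 fold change of 0.10 with 27 positive (61.7% of all genes were), the 40 subunits of complexes II to V a median of 0.066, and 24 citric acid cycle genes a median of 0.078. Under upper-quartile scaling these medians were 0.038, 0.00048 and 0.013. Prkaa1, the alpha 1 catalytic subunit of AMPK, was at 83.5, 87.2 and 88.9 CPM untreated and 106, 99.2 and 115 CPM treated (0.30 ± 0.093, adjusted p = 0.14). Nampt, the rate-limiting enzyme of NAD salvage, was at 75.0, 47.4 and 60.3 CPM untreated and 64.3, 55.1 and 40.5 CPM treated (-0.19 ± 0.19, adjusted p = 0.62). Kmo, a kynurenine hydroxylase of the route from tryptophan to NAD, was the 1 gene of the 21 tested in the NAD list that DESeq2 called (0.0010). It was at 7.31, 1.32 and 0.712 CPM untreated and held 2 treated reads (ratio 67.5, interval 18.3 to 563.5, edgeR adjusted p = 0.11), and the list's median was 0.067. Cpt1a, which admits fatty acids to mitochondria, was at 87.1, 99.4 and 92.1 CPM untreated and 113, 112 and 131 CPM treated (0.35 ± 0.097, adjusted p = 0.12). Ppargc1a, a coactivator of mitochondrial genes (0.086 ± 0.30), and Pdk4, a kinase that inhibits pyruvate dehydrogenase (0.18 ± 0.34), had adjusted p of 0.90 and 0.80.

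Genes of cellular stress did not pass the test. Ddit3, the stress factor CHOP, was at 123, 154 and 153 CPM untreated and 187, 148 and 187 CPM treated (0.28 ± 0.12, adjusted p = 0.27). Hspa5, the chaperone BiP, differed by 0.20 ± 0.19 (adjusted p = 0.61), Atf4 by 0.063 ± 0.13 (0.82), Txnip, a glucose-induced inhibitor of thioredoxin, by 0.13 ± 0.098 (0.51), and the stress cytokine Gdf15 by -0.0049 ± 0.27 (0.99). All 27 tested chaperone and unfolded protein response genes had positive values, against 61.7% of all genes, with a median of 0.16 (0.10 without untreated replicate 1) and 0 called. Under upper-quartile scaling 22 of the 27 were positive, against 50.9% of all genes. With TMM factors 7 of the 27 were separate in the higher direction, a share near the 19.0% of all genes. Among cell cycle genes, Mki67 (-0.30 ± 0.34, adjusted p = 0.67) and Ccnd2 (0.063 ± 0.14, 0.83) did not pass, and the proliferation list's median of -0.20 turned to 0.086 without untreated replicate 1.

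Interferon-stimulated genes had negative log2 fold changes in all 21 tested members (61.7% of all genes had a positive one), with a median of -0.68 (-0.45 without untreated replicate 1). The groups overlapped in 20 of them, while 8.61% of all genes were separate in the lower direction. Ifit1, an antiviral RNA-binding protein, was at 143, 58.8 and 145 CPM untreated and 111, 109 and 18.6 CPM treated (-0.54 ± 0.67, adjusted p = 0.71). Treated replicate 3 was the lowest of the 6 libraries for this gene, and treated replicates 1 and 2 lay within the untreated range. Zbp1, a sensor of nucleic acids, was the 1 member with separate groups and the 1 that DESeq2 called (-2.32 ± 0.70, edgeR adjusted p = 0.18, DESeq2 0.046).

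The chemokine, myeloid and acinar lists held 0 calls by edgeR. Il33, an alarmin cytokine, was at 52.1, 17.6 and 17.5 CPM untreated and 3.32, 5.10 and 2.13 CPM treated (-3.04 ± 0.62, adjusted p = 0.099; 0.029 without untreated replicate 1), and Il2rg, the shared gamma chain of cytokine receptors, at 50.1, 17.6 and 15.2 CPM and 4.73, 5.36 and 2.45 CPM (-2.72 ± 0.55, adjusted p = 0.099; 0.0027). Of 29 tested chemokines, cytokines and receptors 10 were separate in the lower direction (8.61% of all genes) and 2, Il6ra and Il1r1, in the higher (19.0% of all genes), with a median of -0.95. Of 22 tested myeloid genes 18 had negative log2 fold changes (61.7% of all genes had a positive one), with a median of -0.37. Among them 6 were separate in the lower direction (8.61% of all genes) and 0 in the higher (19.0%), and DESeq2 called 4 lower (3.00%). C1qa, a complement component made by islet macrophages, was at 76.8 to 90.5 CPM and 81.6 to 99.0 CPM (0.16 ± 0.10, adjusted p = 0.42). Lyz2, the lysozyme of myeloid cells, was at 77.2, 35.3 and 41.7 CPM and 22.9, 24.1 and 21.6 CPM (-1.17 ± 0.26, adjusted p = 0.099, DESeq2 0.00022). The 28 tested acinar genes had a median of -2.37, or -1.36 without untreated replicate 1, with 5 separate in the lower direction (8.61% of all genes); Ctrb1, a chymotrypsinogen, was at 838, 121 and 611 CPM untreated and 77.5, 154 and 44.8 CPM treated (-2.51 ± 1.03, adjusted p = 0.29).

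**Figure D4:**
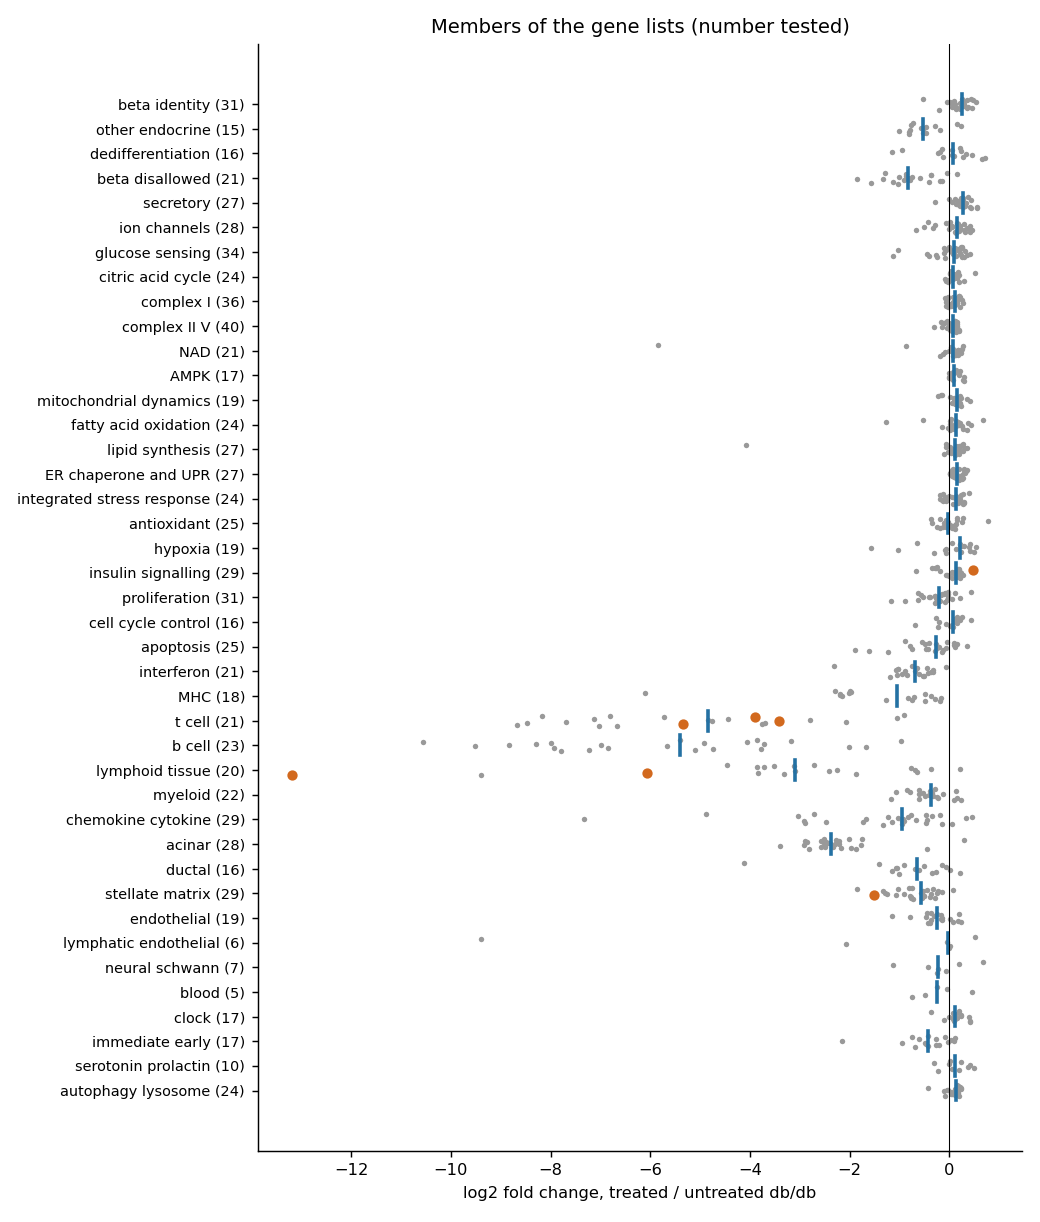
Log2 fold change of treated over untreated db/db islets for the members of each gene list with at least 5 tested members (number in brackets); grey points were not called, orange points were called by edgeR, and the blue bar is the list's median. The T cell, B cell, lymphoid tissue and acinar lists lie to the left with medians of -4.84, -5.40, -3.10 and -2.37, whereas complex I, at 0.10, and the beta cell genes, at 0.25, lie near 0.

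Over the 43 lists, 7 of the 31 called genes were members, in 4 lists, and 39 lists held 0 calls by edgeR. The other 24 called genes belonged to no list.

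**Figure D5:**
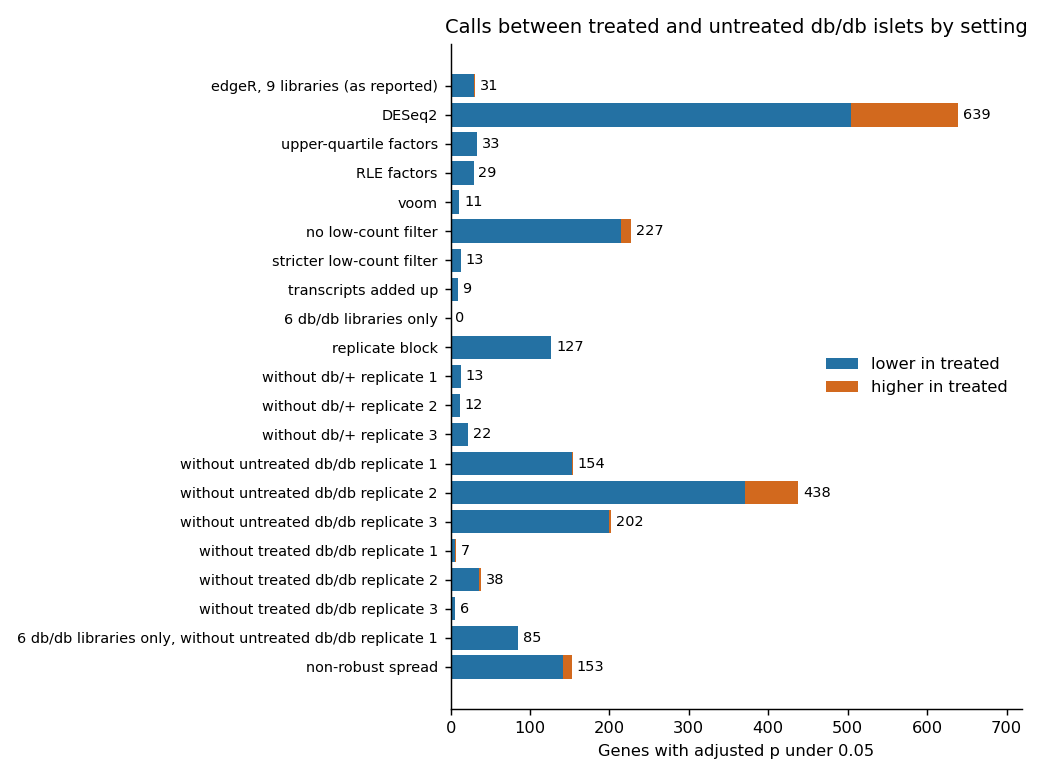
Genes called between treated and untreated db/db islets (adjusted p under 0.05; bars start at 0) under the reported setting and each alternative, with genes lower in treated islets in blue and higher in orange. Counts run from 0 with the 6 db/db libraries by themselves to 639 with DESeq2, and genes lower in treated islets outnumber those higher in every setting with a call.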

How the data were processed

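The 9 islet samples, 3 per group, were grouped by the genotype and treatment labels. RNA was column-purified and made into strand-preserving libraries, per the labels' protocols. The submitters' processing notes name cutadapt 1.9.1, HISAT2 2.2.1, featureCounts 2.0.0 and build GRCm39. The sources used here do not give the strand setting of the counting, so genes that overlap an antisense partner are uncertain. The authors deposited raw counts, per the file headers, in a table of 139023 transcripts that name 46316 genes. Within a gene the transcripts differed little (the lowest count was a median of 0.957 of the highest over 9121 genes), and each gene was represented by 1 transcript, that whose counts summed highest across all 9 libraries.

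Genes were filtered with edgeR's filterByExpr (16811 tested, 29505 not tested) and tested in R 4.3.3 with edgeR 4.0.16 (TMM factors, robust quasi-likelihood F-test, 3 group means over 9 libraries, which share 1 spread estimate), with Benjamini-Hochberg adjustment over all genes tested. All adjusted p-values are from this test unless DESeq2 (1.42.0) is named; limma 3.58.1 gave an alternative, and Python 3.11.15, pandas 2.3.3 and matplotlib 3.10.9 the tables and figures. The script was tested on simulated data. Log2 fold changes carry standard errors, taken as the size of the change divided by the square root of the test's F. They thus rest on the spread shared over the 9 libraries. A treated total of 0 was set at a floor of 3 counts over the group; totals of 1 to 3 are given as ratios of untreated to treated counts scaled by library size, with exact 95% intervals. Floors and intervals cover counting error only, since reads are not independent molecules.

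The comparison, members and 43 gene lists were chosen with earlier results of these data known. Genes were named by a rule: among called genes with separate groups and at least 5 CPM in the higher group, the 12 largest changes, the 6 smallest p and the 6 highest levels in each direction, up to 4 called members of each list, and a set of islet genes; 20 of the 31 called genes met it. Alternatives covered scaling, filter, tool, transcript summing, samples in the fit, a replicate block and each library left out.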

Additional observations from a re-analysis of the deposited data

How the results depend on the processing

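All 31 called genes kept their direction in every alternative in which they were tested, but the number of calls did not hold. Against 31 calls, upper-quartile and RLE factors gave 33 and 29. DESeq2 gave 639 (504 lower and 135 higher, with 21.1% higher against 3.23% in the reported fit), no low-count filter 227, a replicate block 127, voom 11, a filter of 50 counts in 3 libraries 13, transcripts added up 9 and the 6 db/db libraries by themselves 0. Leaving out 1 library gave 6 to 438 calls: 154, 438 (67 higher) and 202 without untreated replicate 1, 2 or 3; 7, 38 and 6 without treated replicate 1, 2 or 3; and 13, 12 and 22 without db/+ replicate 1, 2 or 3. A further 2 alternatives were chosen after seeing the data: a spread estimated without robust fitting gave 153 calls, and the 6 db/db libraries without untreated replicate 1 gave 85. The cause of these shifts was not tested. No scaling moved the median of all genes by more than 0.1 (0.071 with TMM, 0.033 with RLE, 0.005 with upper-quartile factors).

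The labels do not say that equal replicate numbers share an animal or batch. Deviations from group means correlated at 0.057, -0.43 and -0.091 for equal numbers and from -0.30 to 0.44 for unequal ones. With 3 libraries per group these values depend on each other and cannot tell whether libraries were paired. The 127 calls with the block, 29 of them shared with the 31, thus rest on a pairing by number that is not known to hold. Of the genes that fell, 18 averaged under 1 CPM in treated islets, which limits how exactly their fold can be known. Rps6ka2, Fn1 and Zap70 passed in 4, 8 and 8 alternatives, Pdlim1, Lrg1 and Ltbp2 in 19 of 20.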
